A study of Mus musculus with 10 samples.

Results

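The genes described here are 9 that mark the wound-associated and fetal-like state of the intestinal epithelium: Ly6a, Clu, Anxa1, Anxa3, Plau, Plaur, Krt7, Ankrd1 and Msln. They were taken by name from the annotated table, and all 9 were found among the 32132 genes with a count in at least 1 of 10 mouse colon libraries. All 9 also passed the filter on low counts, which kept 19615 genes for testing. Every library came from the colon of an adult wild-type C57BL/6 mouse that drank 3% dextran sulfate sodium (DSS), a detergent-like polymer that injures the colon lining, for 7 days. During those days 5 mice received daily intravenous phosphate-buffered saline (PBS) and 5 received 4-HDHA, a hydroxylated derivative of docosahexaenoic acid, in PBS, with a strength written in the labels as 5 um and a volume of 200 ul per 20 g of body weight. There was no colon without DSS, so levels could be compared only between injured colons. The labels number the colons but do not say separately that each is another animal; if any shared a mouse, the tests would describe only how these libraries scatter.

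When the intestinal lining is wounded, the surviving epithelial cells of the mouse leave their normal crypt program and take on genes of the fetal gut. This state depends on the transcriptional co-activators YAP and TAZ, which act through TEAD DNA-binding factors, and it is marked by the surface protein Ly6a (Sca-1), annexins and keratins that the resting colon makes little of. A rare cell that expresses Clu and can rebuild the crypt after damage belongs to the same program. Several of these genes are also made outside the epithelium. Ly6a is found on endothelial and immune cells, Clu in follicular dendritic cells of lymphoid tissue, Plaur in neutrophils and macrophages, and Msln in the mesothelium that covers the gut.

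Across the 9 genes, no difference between 4-HDHA and PBS colons passed the adjusted test, and the libraries of both groups overlapped for every gene. The fold changes of Clu and Msln each moved by over 1.5 log2 units when a single library was left out. In edgeR's quasi-likelihood test with Benjamini-Hochberg adjustment over all tested genes, 0 of the 9 passed an adjusted p of 0.05, and so did 0% of the 19615 genes. At an unadjusted p under 0.05 there was 1 member, Clu, against 14.8% of all genes. DESeq2 called 0 members, while it called 1.49% of the genes to which it gave an adjusted p. The CPM values (counts scaled to the size of the library with TMM factors) of the 2 groups overlapped for all 9 members, and failed to overlap for 2.79% of all genes. The fitted log2 fold change was below 0 for 8 members and above 0 for Clu. The median over the members was -0.235, beside 0.00807 over all genes tested, of which 49% were lower with 4-HDHA. In these bulk libraries, fewer cells of a type and less RNA per cell cannot be told apart.

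**Figure D1:**
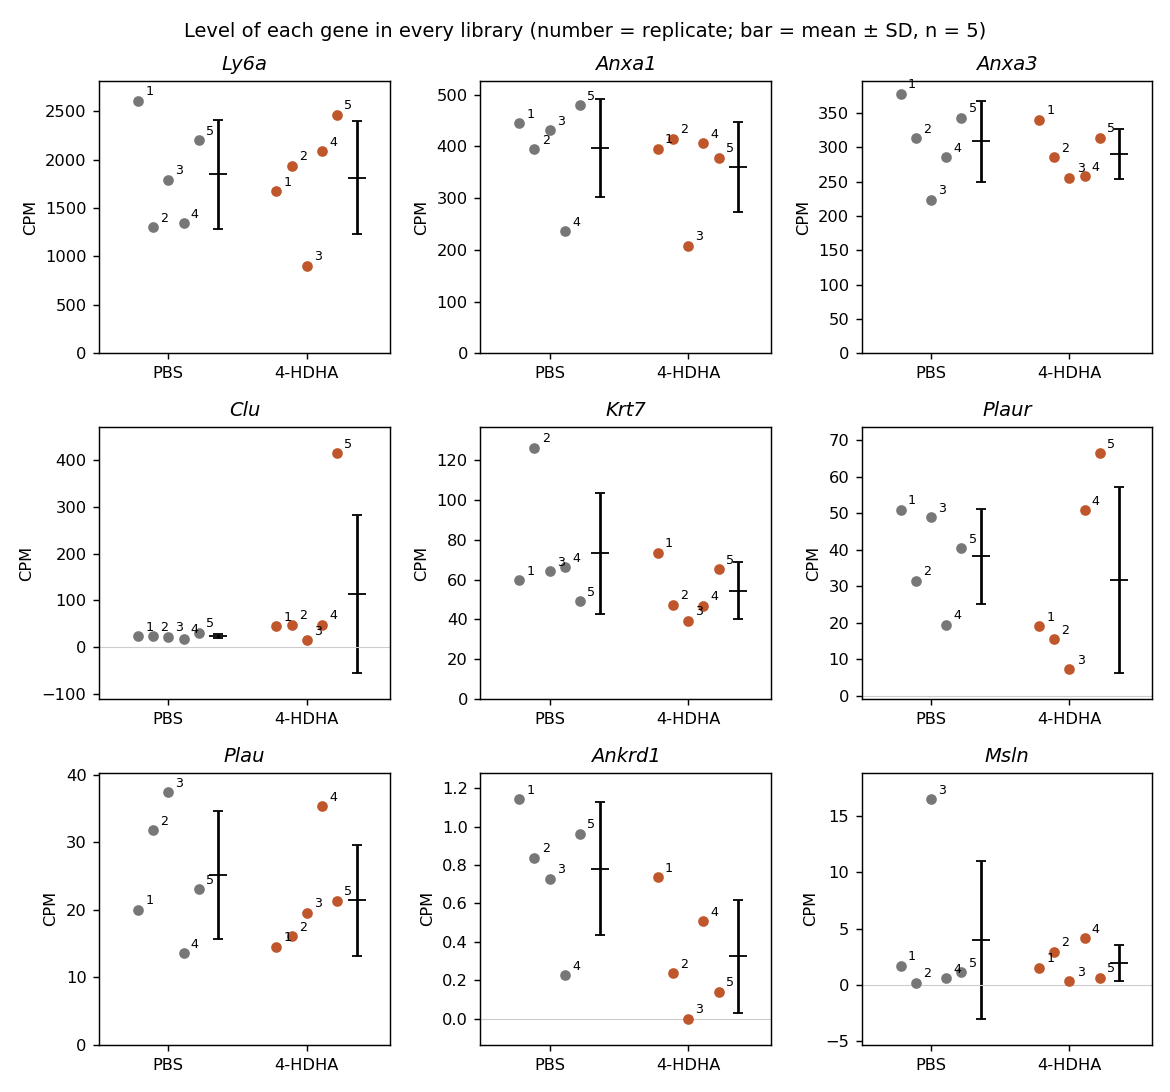
Level of each of the 9 genes in CPM (linear vertical axis) in every library, PBS in grey and 4-HDHA in orange; numbers give the replicate and the bar the mean ± SD (n = 5). The groups overlap in every panel, and Clu in 4-HDHA replicate 5 (415.6 CPM) and Msln in PBS replicate 3 (16.5 CPM) stand far from the rest.

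The labelled tissue was checked with markers. All 12 colon epithelial markers, among them Epcam, Cdh1 and Krt8, were detected, with summed levels of 11770 to 17870 CPM with PBS and 11580 to 17680 CPM with 4-HDHA. Library totals were 50915365 to 66470519 counts. Markers of the tissue under the epithelium were higher with 4-HDHA in fitted fold change for 10 of 10 smooth muscle, 10 of 10 fibroblast and 8 of 8 endothelial genes, with median log2 fold changes of 0.86, 0.93 and 0.59. None of them passed the adjusted test in edgeR, and 4, 6 and 2 of them, in that order, had an unadjusted p under 0.05, as did 14.8% of all genes. Their summed levels were 1103 to 5234 CPM with PBS against 1491 to 8370 CPM with 4-HDHA for smooth muscle, 1095 to 2701 against 1565 to 7335 CPM for fibroblasts and 57.4 to 102 against 90.7 to 172 CPM for endothelium. Of the other marker lists, 6 of 6 adipocyte, 8 of 8 lymphoid follicle, 8 of 8 skeletal muscle, 8 of 10 macrophage and monocyte, 9 of 11 squamous epithelium and 7 of 8 mesothelium genes were higher, with median log2 fold changes of 3.07, 2.61, 0.87, 0.46, 0.53 and 0.51, and the follicle median was -0.39 without 4-HDHA replicate 5. The part of this shift in the results below was not tested, except through the alternatives with a marker mean in the model, which are given with the processing.

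Per length of gene model, as FPKM (fragments per kilobase, scaled to the size of the library), Ly6a was the highest of the 9 by a wide margin. Its level was 1355 ± 328 FPKM with PBS and 1325 ± 388 FPKM with 4-HDHA (SD, n = 5 each). Anxa1 came next at 122 ± 28.3 and 109 ± 22.9 FPKM, and Anxa3 after it at 75.1 ± 9.29 and 70.8 ± 5.83 FPKM. The order Ly6a above Anxa1 above Anxa3 held in all 10 libraries. Plaur (13.1 ± 4.54 and 10.6 ± 8.38 FPKM), Plau (9.72 ± 4.41 and 8.09 ± 3.25 FPKM), Krt7 (9.44 ± 4.44 and 6.82 ± 1.46 FPKM) and, with PBS, Clu (5.95 ± 0.940 FPKM) formed a middle group whose neighbours did not differ beyond their spread. Within it, Plaur was above Plau in 7 of 10 libraries and Plau above Krt7 in 5. Clu ranked 4th by its mean of 17.2 FPKM and 7th by its median of 6.73 FPKM, with 103 FPKM in 4-HDHA replicate 5. Msln, with a median of 0.346 FPKM, and Ankrd1, with a median of 0.184 FPKM, were the lowest, and Krt7 was above Msln in all 10 libraries.

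Ly6a encodes a small surface protein held by a lipid anchor and is the usual marker of the fetal-like state in mice. With PBS its level was 2607, 1304, 1790.3, 1342 and 2198 CPM in replicates 1 to 5. With 4-HDHA it was 1672, 1937, 906, 2085 and 2462 CPM. The highest library was a PBS colon and the lowest, replicate 3, a 4-HDHA colon, and both groups covered most of the same range. The log2 fold change was -0.03 (SE 0.28, 95% interval -0.65 to 0.59; edgeR adjusted p = 0.970), so the interval of the fold ran from 0.638 to 1.51. The gene lies on chromosome 15 (mm10, 74994877 to 74998031, minus strand). Of the 75-base windows of its annotated exons, 6.33% also occur in its neighbours in the family, Ly6c1 and Ly6i, so a small share of its counts is uncertain. In the Ly6 family, 3 of 9 tested genes were higher and 6 lower, none with an unadjusted p under 0.05. Ly6c1, a surface protein of monocytes and endothelium, had a log2 fold change of -0.51 (SE 0.44).

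Clu encodes clusterin, a secreted chaperone, and was the only member higher with 4-HDHA in fitted fold change. With PBS its level was 23.0, 22.5, 21.7, 17.7 and 30.4 CPM in replicates 1 to 5. With 4-HDHA it was 44.0, 48.0, 13.8, 47.7 and 415.6 CPM. Replicates 1, 2, 4 and 5 with 4-HDHA were above every PBS library, and replicate 3 was below every PBS library. Group means were 23.0 ± 4.59 CPM (PBS) and 114 ± 169 CPM (4-HDHA), each ± SD of 5 libraries, and the log2 fold change was 2.31 (SE 0.78, 95% interval 0.59 to 4.03; edgeR unadjusted p = 0.0133, adjusted p = 0.303). Without replicate 5 the 4-HDHA mean was 38.4 ± 16.5 CPM (n = 4), and the log2 fold change was 0.74 (95% interval 0.02 to 1.45; edgeR unadjusted p = 0.0457, adjusted p = 0.278). Clu lies on chromosome 14 (65968483 to 65981547, plus strand) and shares no 75-base window with another gene.

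The library with 415.6 CPM of Clu also stood apart in markers of lymphoid follicles. Its 8 B cell and follicle markers, among them Ms4a1 and Cr2, summed to 466.9 CPM, against 4.62 to 30.8 CPM in the other 9 libraries. Pax5, a B cell transcription factor, was at 55.2 CPM there and at 0.289 to 2.27 CPM elsewhere. Across the 10 libraries the correlation of Clu with the mean log2 level of these markers was 0.795 (Pearson; rho 0.212; permutation p = 0.0423 and 0.560, adjusted over 99 relations 0.586 and 0.927). When the libraries farthest from the median of the markers (PBS 2 and 4-HDHA 5) were left out, r was -0.0712, so the relation rested on those libraries. In 4-HDHA replicates 1, 2 and 4, where Clu was 44.0 to 48.0 CPM, the markers summed to 13.1 to 25.3 CPM, inside the PBS range of 4.62 to 30.8 CPM. Clu with the squamous markers had r = 0.674 (rho 0.564, permutation p = 0.0456 and 0.0953, adjusted 0.586 and 0.745). That r was 0.455 without PBS replicate 3 and 4-HDHA replicate 5. With the adipocyte markers r was 0.377 and rho 0.648 (permutation p = 0.288 and 0.0495, adjusted 0.858 and 0.681). The squamous markers also summed highest in 4-HDHA replicate 5, at 290 CPM, against 271 CPM in 4-HDHA replicate 4. The part of lymphoid, squamous or fat tissue in the Clu values was not tested.

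**Figure D2:**
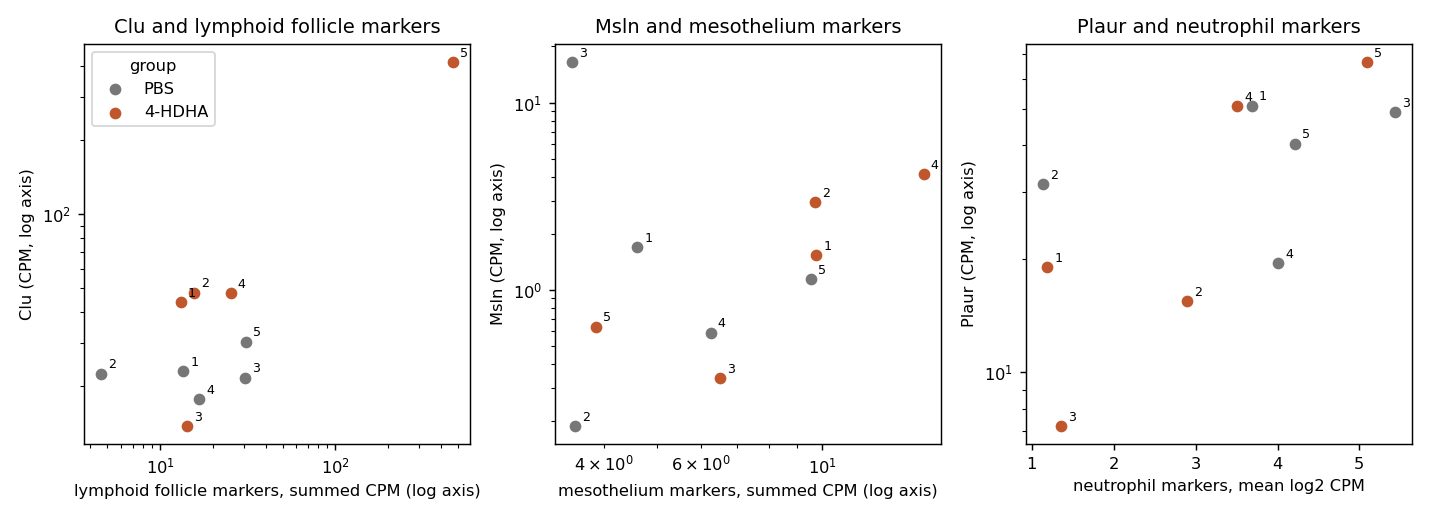
Level of Clu, Msln and Plaur (CPM, log axes) against markers of lymphoid follicles and mesothelium (summed CPM without the plotted gene, log axes) and of neutrophils (mean log2 CPM); each point is a library, numbered by replicate. Clu is highest where the follicle markers reach 466.9 CPM. Msln is highest in PBS replicate 3, where the mesothelium markers sum to 3.50 CPM. That sum is nearly the same, 3.55 CPM, in PBS replicate 2, where Msln is lowest.

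The annexins bind membrane phospholipids when calcium rises. Anxa1 is cut to peptides that act on formyl peptide receptors and is known for limiting inflammation and aiding closure of epithelial wounds. Its level was 445, 395, 431, 236 and 480 CPM in PBS replicates 1 to 5. The 4-HDHA values were 396, 415, 208, 407 and 378 CPM. Each group held a single low library, PBS replicate 4 and 4-HDHA replicate 3, and the other 8 lay between 378 and 480 CPM. The log2 fold change was -0.14 (SE 0.23, 95% interval -0.64 to 0.36; edgeR adjusted p = 0.779).

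Anxa3, a less studied annexin of the same fetal-like set, varied least of the 9. Its level was 378, 314, 224, 286 and 343 CPM with PBS and 340.4, 285, 255, 258 and 314 CPM with 4-HDHA, all of the latter inside the PBS range. The log2 fold change was -0.09 (SE 0.15, 95% interval -0.42 to 0.25; edgeR adjusted p = 0.795), and a fold outside 0.746 to 1.19 lay beyond that interval. Of its windows, 1.12% are shared with Gm42603, an overlapping gene on the same strand. Of 11 tested annexins, 6 were higher and 5 lower. Anxa6, a large annexin, had a log2 fold change of 0.60 (SE 0.22; edgeR unadjusted p = 0.0216), and Anxa11 of -0.32 (SE 0.14; edgeR unadjusted p = 0.0434). The receptors of Anxa1 peptides, Fpr2 and Fpr1, had log2 fold changes of -1.18 (SE 0.86) and -1.04 (SE 1.03). Both were highest in PBS replicate 3, at 32.3 and 16.0 CPM, and both folds were near 0 without that library (0.05 and 0.04).

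Plau encodes urokinase, the protease that turns plasminogen into plasmin, and Plaur its receptor on the cell surface. Plau was at 20.0, 31.8, 37.4, 13.6 and 23.1 CPM in PBS replicates 1 to 5. With 4-HDHA it was at 14.5, 16.1, 19.6, 35.4 and 21.4 CPM. Replicate 4 with 4-HDHA was within the upper PBS values and the other 4 were below the PBS mean of 25.2 CPM. Its log2 fold change was -0.23 (SE 0.30, 95% interval -0.91 to 0.44; edgeR adjusted p = 0.714).

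Plaur spread widely among 4-HDHA colons. Its level was 50.9, 31.5, 48.9, 19.5 and 40.4 CPM in PBS replicates 1 to 5. In the 4-HDHA group it was 19.0, 15.4, 7.21, 50.8 and 66.5 CPM. Replicates 1, 2 and 3 were below every PBS library, replicate 4 was inside the PBS range and replicate 5 was above it. The coefficient of variation was 34.0% with PBS and 80.2% with 4-HDHA. Between groups, its log2 fold change was -0.27 (SE 0.53, 95% interval -1.43 to 0.90; edgeR adjusted p = 0.822), and it was -0.01 without 4-HDHA replicate 3 and -0.73 without 4-HDHA replicate 5.

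Plaur was set beside the marker lists, and none of its relations with them passed the adjusted test. Its correlation with the mean log2 level of 8 neutrophil markers was 0.671 across the 10 libraries (Pearson; rho 0.600; permutation p = 0.0363 and 0.0746, adjusted over 99 relations 0.586 and 0.745), and r was 0.830 without the 2 libraries farthest from the marker median. Its correlation with the epithelial markers was 0.627 (rho 0.345; permutation p = 0.0499 and 0.331, adjusted 0.586 and 0.871; r 0.264 without the 2 farthest libraries), and with the squamous markers 0.398 (rho 0.697; permutation p = 0.255 and 0.0305, adjusted 0.858 and 0.681; r 0.786 without the 2 farthest). Ly6g took 54.7% to 97.4% of the summed neutrophil markers in each library. The other 7 summed to 15.0 to 463 CPM with PBS and 18.5 to 327 CPM with 4-HDHA, and 7 of all 8 had a lower fitted level with 4-HDHA. S100a8, a calcium-binding protein abundant in neutrophils, was at 3.20 to 151 CPM with PBS and 3.14 to 84.0 CPM with 4-HDHA. The part of neutrophils in the Plaur values was not tested. In the plasminogen system, 7 of 12 tested genes were higher and 5 lower, with a median log2 fold change of 0.12. Plgrkt, a plasminogen receptor, averaged 66.7 ± 16.8 CPM in PBS colons and 95.7 ± 6.59 CPM in 4-HDHA colons (SD, n = 5 each), and every 4-HDHA library was above every PBS library (edgeR unadjusted p = 0.0105, adjusted p = 0.303). Vtn, which encodes vitronectin, a matrix ligand of the urokinase receptor, had a log2 fold change of 0.92 (SE 0.57).

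Krt7 is a keratin of simple ducts that is scarce in the resting colon and appears in wound-edge epithelium. Its level was 59.6, 126.2, 64.2, 66.2 and 49.3 CPM in PBS replicates 1 to 5. The 4-HDHA colons had 73.5, 47.4, 39.4, 46.9 and 65.1 CPM. PBS replicate 2 was at 2.12 times the median of the other 9 libraries, and without it the PBS mean was 59.8 ± 7.56 CPM (n = 4). Its log2 fold change was -0.42 (SE 0.26, 95% interval -1.0 to 0.15; edgeR adjusted p = 0.432), and it was -0.14 without PBS replicate 2. Of 6 tested keratins of simple epithelia, 1 was higher and 5 lower, none with an unadjusted p under 0.05. Krt19 had a log2 fold change of -0.25 (SE 0.21), and Krt23 of 0.43 (SE 0.43). Gm671 overlaps Krt7 and 1500015L24Rik overlaps Anxa1, each on the opposite strand; the libraries were strand-marked, but whether the counting used strand is not given in the sources used here.

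Ankrd1 encodes an ankyrin-repeat protein of the nucleus and cytoskeleton and is a standard target gene of YAP. It was the scarcest of the 9 per length, with 0 to 58 counts per library. Its level was 1.14, 0.837, 0.729, 0.225 and 0.964 CPM in PBS replicates 1 to 5. With 4-HDHA it was 0.735, 0.236, 0, 0.506 and 0.140 CPM, where the 0 of replicate 3 allows up to 0.0461 CPM (3 counts, counting error only). All 5 values with 4-HDHA were below the PBS mean of 0.780 CPM, and PBS replicates 3 and 4 lay inside the 4-HDHA range. Its log2 fold change was -1.28 (SE 0.80, 95% interval -3.04 to 0.48; edgeR adjusted p = 0.439).

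Most other targets of YAP and TEAD had a fitted fold change of the opposite sign to Ankrd1. Of 21 tested, 15 were higher and 6 lower with 4-HDHA, with a median of 0.38 on the log2 scale, and 5 were higher at an unadjusted p under 0.05, a threshold that 14.8% of all genes met in either direction. Ptpn14, a phosphatase that restrains YAP and is itself a YAP target, was at 7.88, 13.3, 9.43, 7.54 and 9.96 CPM with PBS and at 18.5, 18.1, 16.4, 27.7 and 14.8 CPM with 4-HDHA. Its groups did not overlap, and its log2 fold change was 0.99 (SE 0.21; edgeR adjusted p = 0.286; DESeq2 adjusted p = 0.00398). Gadd45b, a stress-response gene, had a log2 fold change of 0.54 (SE 0.16; edgeR adjusted p = 0.295). Tgfb2, a secreted growth factor, had 1.05 (SE 0.40), and Crim1, a membrane protein that binds growth factors, had 0.51 (SE 0.21). Among the lower targets, with the same sign as Ankrd1, were Ccn1 at -0.70 (SE 0.46) and Dock5 at -0.45 (SE 0.20). Ccn2 was near 0, at 0.09 (SE 0.52). Of the 6 factors themselves, Tead3 had a log2 fold change of 0.38 (SE 0.17; edgeR unadjusted p = 0.0408) and Tead4 of -0.66 (SE 0.36). Fibroblasts, endothelium and muscle express many of these targets too, and their markers were higher with 4-HDHA as given above; the part of those cells in the counts was not tested.

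Sequence around a RefSeq start of the gene was in the RefSeq promoter table (GRCm38.p6) for 4 of the 9: Ankrd1, Anxa1, Plaur and Krt7. Ankrd1 and Anxa1 are shown because their levels had the highest correlation of any pair of members, as given below. Each window runs 5′ to 3′ on the gene's strand, from 250 bases before the start to 50 after it, with capitals on the letters GGAATG or its reverse complement CATTCC, the core that TEAD factors bind. The Ankrd1 window is chr19:36119795-36120094 and the Anxa1 window chr19:20390622-20390921, both on the minus strand.
Ankrd1: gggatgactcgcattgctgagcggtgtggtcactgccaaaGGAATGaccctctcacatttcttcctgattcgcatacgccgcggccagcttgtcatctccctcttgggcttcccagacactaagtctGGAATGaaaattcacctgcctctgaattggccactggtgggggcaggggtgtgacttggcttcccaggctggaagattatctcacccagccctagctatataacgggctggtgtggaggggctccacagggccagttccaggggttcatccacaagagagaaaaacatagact
Anxa1: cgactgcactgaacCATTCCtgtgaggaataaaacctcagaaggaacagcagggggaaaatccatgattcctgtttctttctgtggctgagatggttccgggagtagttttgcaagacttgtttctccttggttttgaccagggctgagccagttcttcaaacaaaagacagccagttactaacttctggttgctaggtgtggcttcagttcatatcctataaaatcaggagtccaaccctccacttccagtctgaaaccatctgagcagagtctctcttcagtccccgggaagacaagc
GGAATG stood 210 and 123 bases before the RefSeq start of Ankrd1, and CATTCC 236 bases before that of Anxa1. The deposited Anxa1 gene model begins farther upstream, at 20390944 on the minus strand, so its whole window, with CATTCC, lay inside that model. The Krt7 window (chr15:101412153-101412452, plus strand) also lay inside the deposited model, which begins at 101411043. The letters were absent from the Plaur and Krt7 windows. On either strand they occur in 14.7% of the 32851 windows of the same length in the table. The AP-1 letters TGANTCA, searched on both strands, were in the Plaur window 69 bases before the RefSeq start, and in 7.81% of all windows. The 50 bases after that start were not found unbroken in a GENCODE M21 transcript of Plaur. A match of letters is a description and not a measured binding site.

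Msln encodes mesothelin, a lipid-anchored surface protein. Its level was 1.69, 0.188, 16.5, 0.589 and 1.14 CPM in PBS replicates 1 to 5. Values with 4-HDHA were 1.53, 2.93, 0.338, 4.14 and 0.637 CPM. PBS replicate 3 was at 14.5 times the median of the other 9 libraries, and without it the PBS mean was 0.902 ± 0.656 CPM (n = 4), against 1.92 ± 1.6 CPM with 4-HDHA (n = 5). The log2 fold change was -1.07 (SE 1.09, 95% interval -3.47 to 1.33; edgeR adjusted p = 0.631) with all libraries and 1.09 without PBS replicate 3 (edgeR adjusted p = 0.573). In PBS replicate 3, 4 of 7 other mesothelium markers, Upk3b, Wt1, Lrrn4 and Bnc1, were at 0 counts, and the 7 summed to 3.50 CPM, the lowest of the 10 libraries, whose others ranged from 3.55 to 15.3 CPM. The same library had the highest sum of the neutrophil markers other than Ly6g, 463 CPM. Across the 10 libraries, Msln had r = 0.615 with the macrophage and monocyte markers (rho 0.721, permutation p = 0.0591 and 0.0239, adjusted over 99 relations 0.586 and 0.681). That r was 0.69 without PBS replicate 4 and 4-HDHA replicate 4. With the neutrophil markers r was 0.533, and with the mesothelium markers -0.1. The part of any of these cells in the Msln values was not tested. Of the 75-base windows of Msln, 1.43% occur in many other genes, a small uncertain share of a low count.

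**Figure D3:**
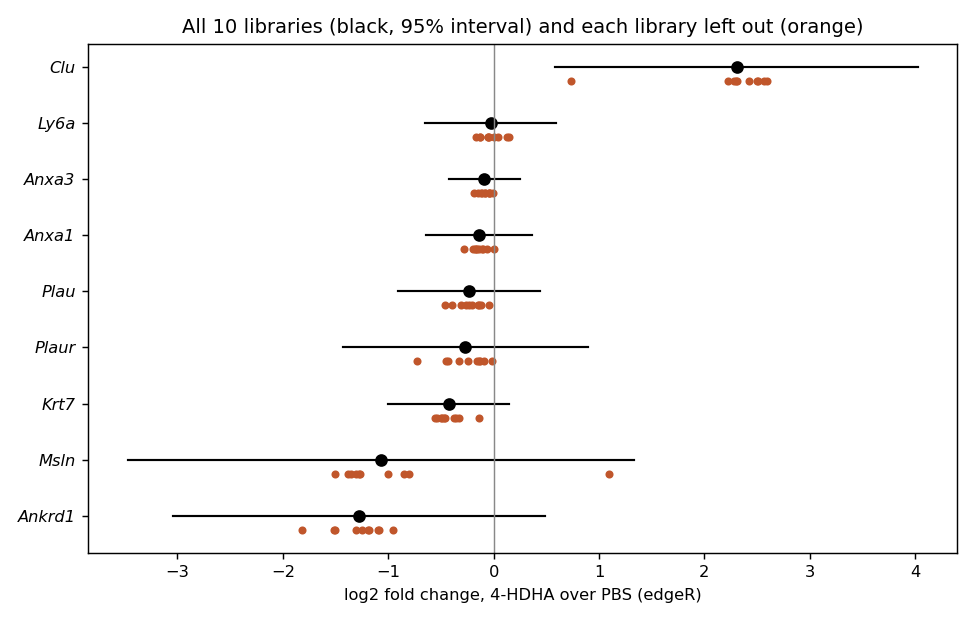
Log2 fold change of 4-HDHA over PBS for each of the 9 genes: black, all 10 libraries with the 95% interval; orange, the fit with each library left out. Clu drops from 2.31 to 0.74 and Msln turns from -1.07 to 1.09 when a single library is left out.

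The members were also compared with each other. Of 36 pairs, 30 had a positive Pearson r of log2 CPM over the 10 libraries, with a median r of 0.347; all pairs share the same libraries. None passed an adjusted p of 0.05 over the 36 pairs. The highest was Anxa1 with Ankrd1 at r = 0.816 (rho 0.770; permutation p = 0.00740 and 0.0130, adjusted 0.0888 and 0.235), which was 0.606 once the libraries farthest from the median (PBS 4 and 4-HDHA 3) were left out. Ly6a with Plaur followed at r = 0.802 (rho 0.770; permutation p = 0.00523 and 0.0129, adjusted 0.0888 and 0.235; 0.696 without the 2 farthest libraries). Ly6a with Anxa1 was at r = 0.796 (rho 0.648; permutation p = 0.00661 and 0.0482, adjusted 0.0888 and 0.355; 0.716 without the 2 farthest). On deviations from the group means these correlations were 0.872, 0.830 and 0.801. Anxa1 with Plaur, at r = 0.706 (rho 0.370; permutation p = 0.0271 and 0.296, adjusted 0.244 and 0.616), was 0.0929 without PBS replicate 4 and 4-HDHA replicate 3, and rested on them. Without the 2 farthest libraries, Plaur with Ankrd1 went from r = 0.638 to -0.0533 and Ly6a with Ankrd1 from 0.581 to 0.220. Of 99 relations of members with marker lists, 0 passed the adjusted test. Ankrd1 with the epithelial markers had the highest r, 0.797 (rho 0.758, permutation p = 0.0189 and 0.0151, adjusted 0.586 and 0.681). Anxa3 with those markers had the highest rho, 0.830 (r 0.652, permutation p = 0.0046 for rho and 0.0347 for r, adjusted 0.455 and 0.586). Without the 2 libraries farthest in those markers, r was 0.405 for Ankrd1 and 0.769 for Anxa3. With the macrophage and monocyte markers, r was 0.635 for Anxa1, 0.616 for Ly6a and 0.615 for Msln (permutation p = 0.0544, 0.0592 and 0.0591, adjusted 0.586 each). It was 0.326 to 0.449 for Ankrd1, Clu, Plau and Plaur, -0.00582 for Anxa3 and -0.361 for Krt7. On deviations from the group means it ran from -0.216 for Krt7 to 0.806 for Anxa1. The part of macrophages in these values was not tested.

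**Figure D4:**
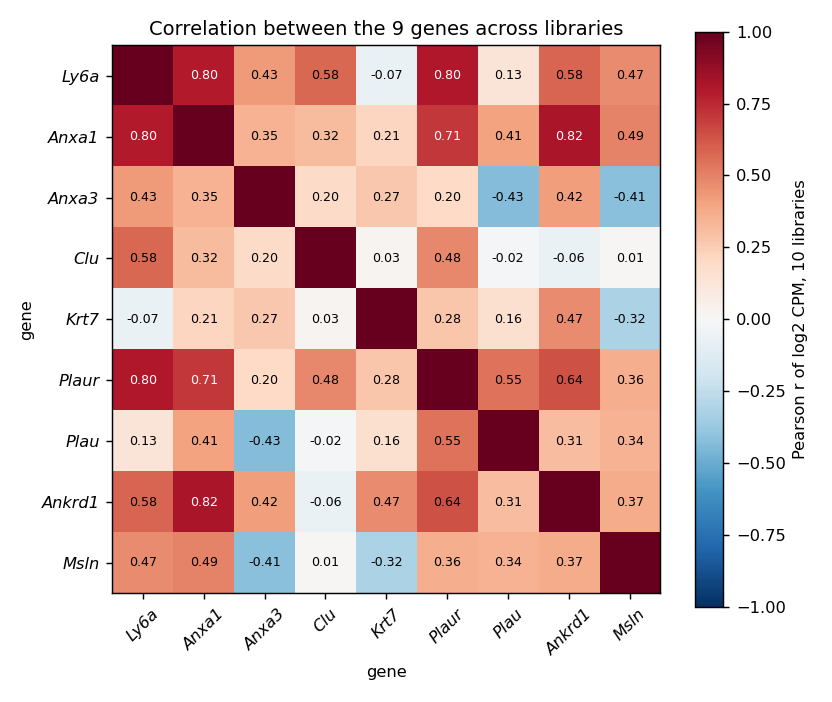
Pearson r of log2 CPM across the 10 libraries for each pair of the 9 genes; rows and columns are genes and the colour scale runs from -1 to 1. Ly6a, Anxa1, Plaur and Ankrd1 hold the highest values, up to 0.82, of which those of Plaur with Anxa1 and with Ankrd1 are 0.0929 and -0.0533 without 2 libraries, while Anxa3 and Krt7 are negative with Msln.

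Libraries at the extremes were shared between members. In 4-HDHA replicate 3, 6 of the 9 genes, Ly6a, Anxa1, Clu, Krt7, Plaur and Ankrd1, had their lowest level of all 10 libraries, and none had its highest. That library also had the lowest sum of the 21 other wound-associated and fetal-like genes, 1793 CPM against 2189 to 4036 CPM in the others. The library was also lowest in the sum of colon epithelial markers, at 11580 CPM, with 11770 CPM in PBS replicate 3 and up to 17870 CPM elsewhere. It had the highest sum of the 8 crypt base stem cell genes, 209 CPM against 74.1 to 178 CPM in the others. Lgr5, the marker of normal crypt stem cells, was at 4.41 CPM there, against 0.188 to 0.450 CPM with PBS and 0.290 to 1.43 CPM in the other 4-HDHA libraries. PBS replicate 4 was the lowest PBS library for Anxa1, Plaur, Plau, Ankrd1 and Clu and had the second lowest sum of the other fetal-like genes, 2189 CPM.

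For each member, the genes with the nearest pattern over the 10 libraries were found among the 15485 whose mean level reached 1 CPM, by Pearson r, as a description with no p. Ly6a was nearest to Jak1 (0.976), Trim15 (0.970) and Tmem150b (0.963). Anxa1 was nearest to its relative Anxa2 (0.958), then to Grhl3 (0.950), a transcription factor of epithelial barriers. Plau was nearest to Egr1 (0.935) and Ch25h (0.904). Clu was nearest to Trim7 (0.982), Ptpn6 (0.968), a phosphatase of blood cells, and Cd180 (0.957), a B cell surface protein. Plaur was nearest to Rhof (0.957), Fgd3 (0.947) and Gmfg (0.946). Anxa3 was nearest to Cox6a1 (0.978), Trim16 (0.952) and Rab11fip1 (0.951), and Ankrd1 to Mapk14 (0.921), Slc4a11 (0.921) and Dynll1 (0.920). Krt7 was nearest to Cep170b (0.905), Ankrd9 (0.884) and Mea1 (0.879), and Msln to the antibody segment Ighv1-77 (0.922), Lgi2 (0.916) and Bglap3 (0.900). As the top of a search over so many genes, these values are high by selection. Clu was at 415.6 CPM in 4-HDHA replicate 5 and at most 48.0 CPM elsewhere. Msln was at 16.5 CPM in PBS replicate 3 and at most 4.14 CPM elsewhere. Their nearest genes were not sought again without those libraries.

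Of the 21 other wound-associated and fetal-like epithelium genes, 7 were higher and 14 lower with 4-HDHA, with a median of -0.12 on the log2 scale, and none passed the adjusted test in edgeR. Itga2, the collagen-binding integrin of spreading epithelium, was at 22.5, 21.05, 26.3, 28.6 and 16.2 CPM with PBS and at 10.4, 13.5, 18.6, 15.0 and 10.6 CPM with 4-HDHA. Only PBS replicate 5 and 4-HDHA replicate 3 crossed over, and the log2 fold change was -0.75 (SE 0.20; edgeR unadjusted p = 0.00360, adjusted p = 0.291; DESeq2 adjusted p = 0.0370). Cxadr, a tight junction protein, had a log2 fold change of 0.42 (SE 0.19; edgeR unadjusted p = 0.0468). Ereg, a growth factor of the wound niche, had -1.25 (SE 0.67), with 170 CPM in PBS replicate 3 and at most 69.6 CPM elsewhere; without that library it was -0.55.

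Genes of the normal crypt were examined beside them. Of 8 crypt base stem cell genes, 4 were higher and 4 lower, with a median log2 fold change of -0.00078. Lgr5 had a log2 fold change of 2.43 (SE 0.67; edgeR unadjusted p = 0.0039, adjusted p = 0.291; DESeq2 adjusted p = 0.0189), and 4 of 5 libraries with 4-HDHA were above every PBS library. Without 4-HDHA replicate 3 it was 1.58 (edgeR adjusted p = 0.225), and limma voom gave 1.15 (adjusted p = 0.399). Smoc2, another crypt base gene that fibroblasts also make, had 0.86 (SE 0.43). The lower genes were Axin2 at -0.49 (SE 0.71), Olfm4 at -0.37 (SE 0.87), Rnf43 at -0.28 (SE 0.18) and Lrig1 at -0.12 (SE 0.29). Ascl2 had 0.15 (SE 1.44) and Znrf3 0.12 (SE 0.34). Of the 12 epithelial markers, 5 were higher and 7 lower; Cdx2, the transcription factor of intestinal identity, had a log2 fold change of -1.46 (SE 0.52; edgeR unadjusted p = 0.0168, adjusted p = 0.303), with means of 29.0 ± 16.5 CPM in PBS colons and 10.5 ± 8.14 CPM in 4-HDHA colons (SD, n = 5 each).

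**Figure D5:**
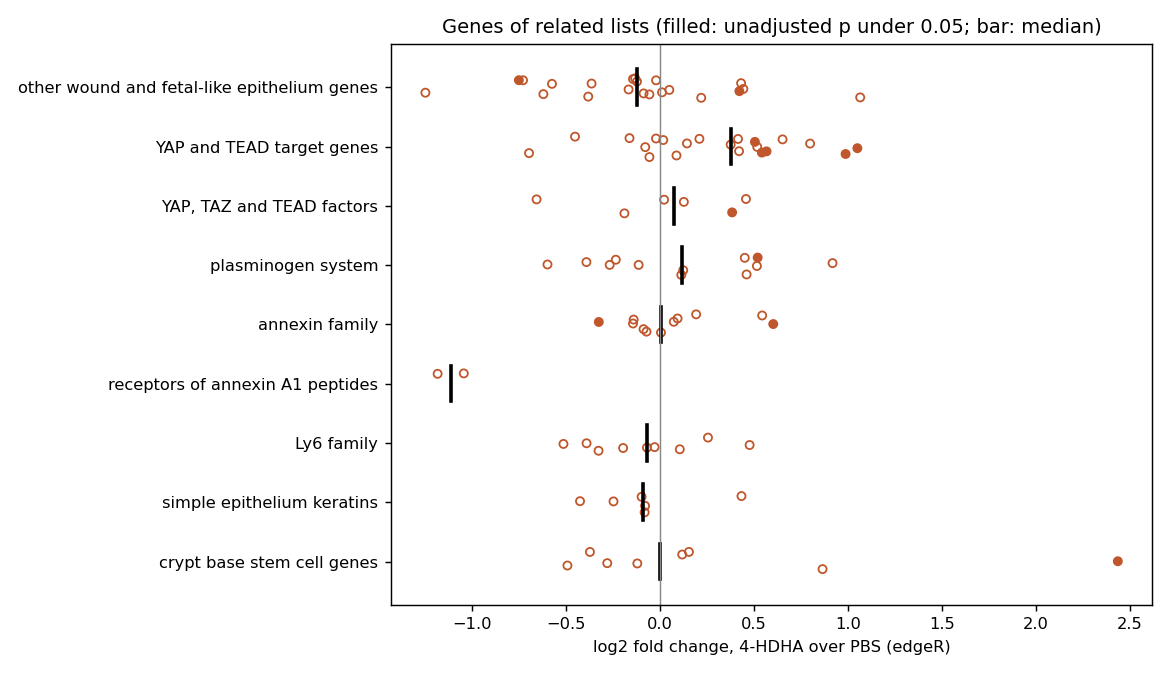
Log2 fold change of 4-HDHA over PBS for the genes of 9 related lists; each circle is a gene, filled where the unadjusted edgeR p is under 0.05, and the bar is the list's median. The YAP and TEAD targets have a median of 0.38 and the other wound-associated and fetal-like genes one of -0.12.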

How the data were processed

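The authors deposited unnormalized read counts per gene for each library and, in an annotated table, FPKM values scaled by the authors to gene length and library size. Per the submitters' processing notes, the build was mm10 and the tools included StringTie 1.3.4d, HISAT2 2.0.4 and cutadapt 1.9, beside DESeq2 and edgeR; their order and settings are not given in the sources at hand. Groups and replicate numbers came from the sample descriptions.

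The test on the counts was that of edgeR 4.0.16, run in R 4.3.3 (TMM factors, filterByExpr, robust quasi-likelihood F test of 5 against 5 libraries, Benjamini-Hochberg adjustment over all tested genes), after a check on simulated data. Fold changes give 4-HDHA relative to PBS on the log2 scale; standard errors follow from the F statistic. Levels are CPM with TMM factors; log2 CPM used a prior count of 2. Correlations used 100000 permutations. DESeq2 1.42.0, limma 3.58.1 and other normalizations, filters and left-out libraries were alternatives.

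The 9 genes, the gene lists and the marker lists were chosen with earlier results of these data known. Named genes are all members, up to 4 genes of each list with the smallest p, and the 3 nearest genes to each member, of which a few are not reported here; others, such as the 4 mesothelium markers at 0, were named after their values were seen. Positions are those of the deposited table; they equal GENCODE M21 for 7 of the 9 members.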

Additional observations from a re-analysis of the deposited data

Results flagged for a closer look

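In 4 of 18 sets of 5 libraries (9 genes in 2 groups), a single library lay far from the other 4 by Dixon's criterion. Chance meets it in about 1 in 20 sets of independent, normally distributed values. Here CPM was not log-transformed and the 18 sets shared the same 10 libraries, so that rate cannot be set against the 4. Clu was at 415.6 CPM in 4-HDHA replicate 5, at 18.1 times the median of the other 9 libraries. Msln was at 16.48 CPM in PBS replicate 3, at 14.5 times that median. Krt7 was at 126.2 CPM in PBS replicate 2, at 2.12 times the median. Anxa1 was at 207.8 CPM in 4-HDHA replicate 3, at 0.511 times the median.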

How the results depend on the processing

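Across 12 other settings and 10 fits that each left out a library, no member passed an adjusted p of 0.05. The count of genes called was 0 in each except with DESeq2, where it was 308; among the genes named, DESeq2 called Itga2, Ptpn14, Lgr5 and Pi16. At an unadjusted p under 0.05 there was 1 member with each library left out in turn (lowest 1, highest 1). It was Plaur, not Clu, with limma voom, Ankrd1 with limma on log2 FPKM at either pseudocount, 1 or 0.1, and 0 members without both PBS replicate 3 and 4-HDHA replicate 5, an alternative chosen after seeing the data. The median of the members was -0.257 to 0.0992 across the other settings and -0.393 to -0.0441 with a library left out. The Clu log2 fold change stayed above 0, at 0.71 to 2.93.

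The replicate numbers did not pair the libraries: deviations of same-numbered libraries correlated at -0.316 to 0.0836, and none correlated best with its own number. With the replicate block, 0 members had an unadjusted p under 0.05, and the Msln log2 fold change was 0.34.

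Several log2 fold changes changed sign, those of Msln, Fpr1, Fpr2 and Pax5 by large amounts, and the cause was not tested. With the epithelial marker mean in the model, Ly6a was 0.32, Anxa1 0.10, Anxa3 0.10, Plaur 0.18 and Krt19 0.013. With the smooth muscle marker mean, Ly6a was 0.11, Plaur 0.034, Msln 1.67, Fpr2 0.25 and Fpr1 0.45. Msln was 0.98 with voom and 1.32 without PBS replicate 3 and 4-HDHA replicate 5, where Pax5 was -0.06. With a library left out, ranges crossing 0 were Ly6a -0.16 to 0.14 (-0.18 without those 2 libraries together), Anxa1 -0.28 to 0.0054, Msln -1.50 to 1.09, Fpr2 -1.71 to 0.051, Fpr1 -2.20 to 0.035 and Pax5 -0.30 to 3.47. Ankrd1 was not tested under a mean of at least 1 CPM. With 5 libraries a group, the 95% interval lay within a 2-fold change for 4 of the 9 genes and reached or passed it for the other 5.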
